A study of Mus musculus with 8 samples.

Results

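The ion channel genes were all genes whose symbol starts with Kcn, Scn, Cacn, Trpa, Trpc, Trpm, Trpv, Clcn, Clic, Hcn, Ryr or Itpr. The rule found 69 genes with 89 probes among 8741 named genes, and all 69 had a value in each mouse. By ion they were 30 potassium, 2 sodium, 19 calcium, 10 mixed cation and 8 chloride genes. Lung RNA of 4 male mice transgenic for Fra-2, the AP-1 transcription factor encoded by Fosl2, was hybridised on 2-colour arrays against a single pool, made from the lungs of 4 wild-type males. All animals were 14 weeks old and of mixed C57BL6 and CBA background. The promoter of the transgene is not given in the sources used here, and each transgenic mouse was measured on a dye-swapped pair of arrays, 8 arrays in all.

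Ion channels are membrane proteins that let ions pass down their gradients. Potassium channels set the resting potential of muscle, epithelial and immune cells. Calcium channels couple voltage to contraction and secretion, and sodium and chloride channels of the airway and alveolar epithelium govern the fluid that lines the lung. Most channels combine pore-forming subunits with accessory subunits that change their gating or traffic. The prefixes also take in proteins that are not channels in the strict sense: Trpc4ap encodes a protein that binds TRP channels, the Kcnip genes encode calcium-binding partners of potassium channels, some CLC proteins are chloride and proton exchangers, and CLIC proteins are mostly soluble proteins of the glutathione transferase fold. The label therefore holds for channel genes together with their partners.

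Values are log2 ratios of transgenic lung over the pool, averaged over the 2 arrays of a mouse and over the probes of a gene, with n = 4 mice. This direction is likely only: its basis is the order of the channels in the labels, and with the opposite sign higher and lower would exchange throughout. A gene was called higher or lower at an adjusted p under 0.05, by limma on the mouse means against 0 with Benjamini-Hochberg adjustment over all 8692 genes tested. The test leaves out the spread of the wild-type group, since there was 1 pool. Ratios give no level, so neither the abundance of a channel nor the presence of lung markers could be read from them, and in whole lung fewer cells of a type and less RNA per cell cannot be told apart. The Cy3 array of mouse 4 stood apart, with an interquartile range of 0.906 against 0.451 to 0.521 on the other 7 arrays and a correlation of 0.389 with its dye swap, against 0.587 to 0.685 for the other pairs. Calls of ion channel genes that were lost without that array are given beside the genes.

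The ion channel genes moved both ways and by modest amounts. Of the 69 genes, 15 were higher and 13 lower, which is 40.6%. Over all genes tested, 31.9% were called, 13.5% higher and 18.4% lower. The median ratio of the 69 was 0.03, against -0.01 for all genes. Regardless of sign, the median size of the mean ratio was 0.26, against 0.19 for all genes. None of the 28 called genes exceeded 1 in size on the log2 scale, and 8 exceeded 0.5, which is 11.6% of the 69, against 11.5% of all genes tested. Without the Cy3 array of mouse 4 the counts were 13 higher and 8 lower, and the median was 0. On the arrays with transgenic RNA in Cy3 alone 15 of the 28 calls were lost, and on those with it in Cy5 alone 8 were lost. They were 9 to 13 higher and 4 to 6 lower when 1 mouse was left out.

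**Figure D1:**
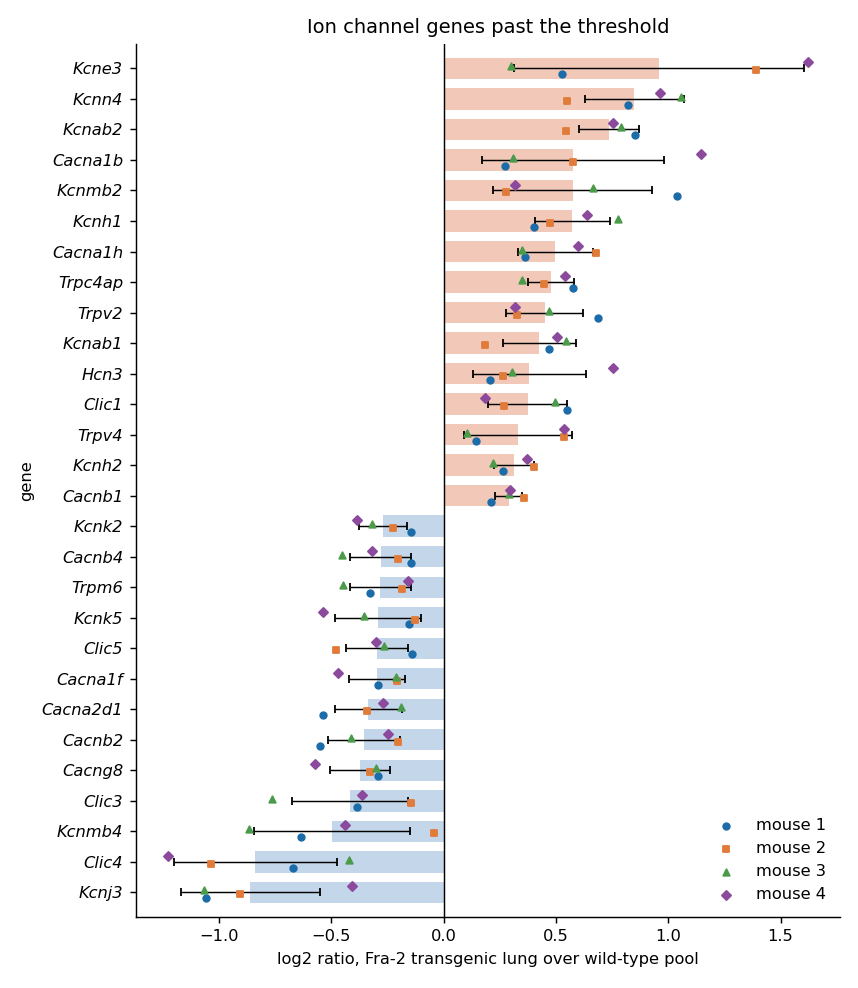
Log2 ratio of transgenic lung over the wild-type pool (horizontal axis) for the 28 ion channel genes past the threshold, 15 higher and 13 lower; bars are means of 4 mice, whiskers the SD, and symbols the 4 mice. Kcne3 at the top and Clic4 near the bottom show the mice far apart, while Kcnab2 and Cacnb1 show them close together.

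Kcne3 had the highest mean of the 69 genes, and its mice fell into a high and a low pair. Kcne3 encodes a single-span accessory subunit that holds the epithelial potassium channel of the Kcnq1 type open and so supports chloride secretion. Its log2 ratios were 0.53, 1.39, 0.30 and 1.62 in mice 1 to 4, a mean of 0.96 ± 0.65 (SD), or 1.94-fold higher (adjusted p = 0.0161). Mice 2 and 4 stood well above mice 1 and 3, and 7 of 8 arrays were above 0, from -0.28 to 2.05. Leaving out mouse 2 or mouse 4 ended the call (adjusted p = 0.0601 to 0.0623) and put its mean, 0.816 and 0.738, below that of Kcnn4, 0.948 and 0.81. With transgenic RNA in Cy3 alone the mean of Kcne3 was 0.574 (adjusted p = 0.108), also below that of Kcnn4 (0.914), and in Cy5 alone it was 1.344. The names of Kcne3 and Kcnj3 lie in number blocks where the pairing of names with values was least certain.

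Kcne3 was also 1 of 2 ion channel genes that differed between the 4 mice, by limma's F test over the 8 arrays, in a model that includes the dye (adjusted p = 0.0341). The other was Kcna6, which encodes a voltage-gated potassium channel of the Shaker type. Kcna6 had ratios of -0.36, 0.10, -0.91 and -0.17, with mouse 3 lowest, and its mean did not pass against the pool (-0.34 ± 0.43, adjusted p = 0.133). Its F test gave adjusted p = 0.0456. These 2 genes are 2.90% of the 69, against 2.78% of the 8645 genes tested between mice. The F test sets the mice against the spread between the 2 arrays of a mouse, which share an RNA extract. It cannot tell a difference between mice from one between RNA extracts. The calls of Kcne3 and Kcna6 also depended on the model and on single mice. Without the dye covariate neither passed (adjusted p = 0.376 for Kcne3 and 0.0813 for Kcna6). With 1 mouse left out Kcne3 did not pass (adjusted p = 0.0587 to 0.158), and Kcna6 passed without mouse 4 (adjusted p = 0.023) but not without another mouse (0.079 to 0.38).

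The same division of the mice was seen in markers of airway epithelium and, in the opposite direction, in other marker lists. The median of 3 club cell genes was -1.62, -0.03, -1.58 and -0.26 in mice 1 to 4, and 2 of the 3 were lower, of which Aldh1a1 was not without mouse 1, 3 or 4 (adjusted p = 0.0697 to 0.149) or without the Cy3 array of mouse 4 (0.0591). The median of 5 genes of ciliated cells was -0.18, 0.61, -0.46 and 0.23, and none of the 5 passed the limma threshold. Mice 2 and 4 were thus the higher pair in both lists, as for Kcne3. They were the lower pair in the medians of B cell (0.90, 0.56, 0.82 and 0.43), T cell, macrophage and endothelial genes, so the division was not particular to airway markers. Each of these 4 medians rests on 2 or 3 genes, and not every gene divided the mice so. The endothelial gene Ramp2 was at 0.65, 0.52, 0.22 and 0.20 in mice 1 to 4. The T cell gene Cd2 was at 0.97, 0.62, 0.45 and 0.77. In the other genes of these lists mice 2 and 4 were the lower pair. The part of any of these cells in the Kcne3 values was not tested.

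The promoter of Kcne3 and that of 2 other called genes hold the letters TGANTCA, a pattern wider than the usual AP-1 site. It is shown here because Fra-2 binds DNA as an AP-1 partner. The usual site has C or G in the place of N, as in Clic1 and Kcnk2, whereas Kcne3 has A there. The letters TGANTCA, a pattern that reads the same on both strands, were searched in the RefSeq windows from 250 bases before to 50 bases after each annotated start (GRCm38.p6). A second pattern, TGACGTCA, was searched in the same windows. In the lines below, the capitals mark the match and the sequence runs 5′ to 3′ on the strand of the gene.
Clic1, chr17:35050175-35050241, plus strand: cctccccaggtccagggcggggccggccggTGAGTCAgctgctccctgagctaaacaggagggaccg
Kcne3, chr7:100176603-100176669, plus strand: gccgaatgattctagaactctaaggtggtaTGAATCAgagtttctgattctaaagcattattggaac
Kcnk2, chr1:189344282-189344348, minus strand: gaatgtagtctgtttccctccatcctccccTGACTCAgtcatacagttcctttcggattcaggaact
Relative to the annotated start, the match begins at -38 in Clic1, at -37 in Kcne3 and at -126 in Kcnk2. Of the 53 ion channel genes with a window, 4 held a match (7.55%), against 8.97% of all 27025 genes in the table. They were Clic1 and Kcne3, which were higher, Kcnk2, which was lower, and Kcnip3, which did not pass. The second pattern was held by 2 of the 53 (3.77%), against 2.03% of all genes in the table. None of the called ion channel genes with a window held it. Clic1 and Kcnk2 are described with their families, and the matches are letters only.

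Of the 8 accessory potassium channel genes, Kcne3 among them, 4 were higher and 1 lower, with 31.9% of all genes called. Kcnab2 encodes a cytosolic beta subunit of Shaker channels with the fold of an oxidoreductase. Its ratios were 0.85, 0.55, 0.79 and 0.76, a mean of 0.74 ± 0.13 or 1.67-fold higher (adjusted p = 0.00157). The lowest of its 8 arrays was at 0.48, and no mouse stood apart. Its paralog Kcnab1 had 0.47, 0.19, 0.54 and 0.50, a mean of 0.43 ± 0.16 (adjusted p = 0.0105), with mouse 2 lowest and all 8 arrays above 0. With transgenic RNA in Cy3 alone Kcnab1 did not pass (adjusted p = 0.0596).

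The 2 measured beta subunits of the large-conductance calcium-activated channel moved in opposite directions. Kcnmb2, which makes that channel inactivate, had 1.04, 0.28, 0.66 and 0.32, a mean of 0.57 ± 0.35 (adjusted p = 0.017). Kcnmb4, a subunit best known from neurons, had -0.64, -0.04, -0.87 and -0.44, a mean of -0.50 ± 0.35 (adjusted p = 0.0265). In both genes mice 1 and 3 lay farthest from 0 and mouse 2 nearest. Kcnmb2 was not called without mouse 3 (adjusted p = 0.051) or with transgenic RNA in Cy3 alone (0.129). Kcnmb4 was not called without mouse 1, 3 or 4 (adjusted p = 0.0749 to 0.0926) and without the Cy3 array of mouse 4 (adjusted p = 0.0852). Nor did it pass with transgenic RNA in Cy5 alone (adjusted p = 0.164). The pore gene of that channel is not analysed here. Genes of the Kv channel interacting proteins had means near 0: Kcnip1 (-0.03), Kcnip2 (0.06) and Kcnip3 (-0.06) did not pass (adjusted p = 0.621 to 0.889). Their mice lay on both sides of 0, from -0.36 to 0.38 in Kcnip1 and from -0.42 to 0.30 in Kcnip3. Kcnip2 was at -0.26 with transgenic RNA in Cy5 alone (adjusted p = 0.0493) and at 0.375 in Cy3 alone (0.0647). A further probe of Kcnip2 had no usable value in mice 1 and 2, so the Kcnip2 mean rests on 3 of its 4 probes.

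Kcnn4 had the highest mean of the pore-forming channel genes. It encodes the intermediate-conductance calcium-activated potassium channel, known for setting the membrane potential of activated T cells, macrophages and some epithelia. Its ratios were 0.82, 0.55, 1.06 and 0.97 in mice 1 to 4, a mean of 0.85 ± 0.22 or 1.80-fold higher (adjusted p = 0.00187), and all 8 arrays lay between 0.54 and 1.17. Its 2 probes differed in size: one averaged 1.43 (adjusted p = 0.00186 over all probes) and the other 0.27 (adjusted p = 0.0988). The other potassium channel genes grouped here with Kcnn4 by symbol, not all of them calcium-activated, did not pass. They were Kcnn2 (0.14), Kcnn3 (-0.03), Kcnu1 (0.09) and Kcnt1 (0.001), whose 2 probes gave -0.25 and 0.26.

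Most of the lymphocyte markers measured, and 1 of 2 macrophage markers, were higher in the same lungs. All 3 measured B cell genes were higher (Cd79b not without mouse 1 or 3, adjusted p = 0.0588 to 0.0656), as were 2 of 3 T cell genes and 1 of 2 macrophage genes. Their medians over the mice were 0.43 to 0.90 for B cells, 0.33 to 0.97 for T cells and 0.30 to 0.80 for macrophages. Cd22 (0.996 ± 0.24), Cd2 (0.70 ± 0.22) and the mannose receptor gene Mrc1 (1.25 ± 0.27) were the highest of each list. The other macrophage gene, Lyz2, was at -0.17 ± 0.17 (adjusted p = 0.175), and the T cell gene Cd3d did not pass (0.51 ± 0.51, adjusted p = 0.0628). With transgenic RNA in Cy3 alone the called genes Cd79b (0.326, adjusted p = 0.181) and Cd3g (0.204, adjusted p = 0.429) did not pass. The part of these cells in the values of Kcnn4, Kcnab2 and the other raised channel genes was not tested.

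**Figure D2:**
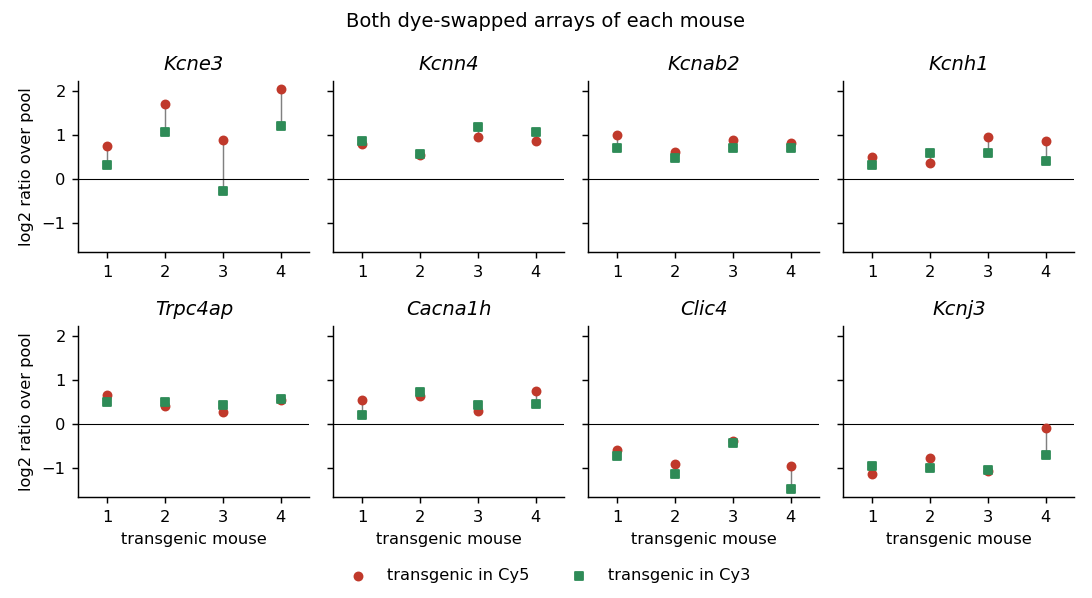
Log2 ratio over the pool (vertical axis) on both dye-swapped arrays of each transgenic mouse (horizontal axis) for 8 ion channel genes; circles have the transgenic RNA in Cy5 and squares in Cy3. All arrays of Kcnn4, Kcnab2, Kcnh1, Trpc4ap and Cacna1h lie above 0 and all of Clic4 and Kcnj3 below it, while the Kcne3 values of mouse 3 (0.88 and -0.28) and the Kcnj3 values of mouse 4 (-0.11 and -0.71) lie apart.

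Among the voltage-gated potassium pore genes, 2 of 8 were higher and none was lower, with 13.5% of all genes higher and 18.4% lower. Both of the higher genes belong to the ether-a-go-go family. Kcnh1, which encodes the founding channel of that family, had 0.40, 0.47, 0.78 and 0.64, a mean of 0.57 ± 0.17 or 1.49-fold higher (adjusted p = 0.00422), with all 8 arrays above 0.32. Kcnh2, which encodes the hERG channel that repolarises heart muscle, had 0.26, 0.40, 0.22 and 0.37, a mean of 0.31 ± 0.09 (adjusted p = 0.0175). Kcnh2 did not pass without mouse 1 or 2 (adjusted p = 0.06 to 0.0769), and on the arrays with transgenic RNA in Cy3 alone its mean was 0.09 (adjusted p = 0.56). The third member of the family, Kcnh3, did not pass (0.08 ± 0.26). Nor did Kcnc4 (0.27), Kcnq3 (0.16), Kcnd3 (0.01), Kcna1 (-0.01), Kcna6 or the silent subunit gene Kcnf1 (-0.11).

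Kcnj3 had the lowest mean of the 69 genes, close to that of Clic4 (-0.84), which was the lower of the pair without mouse 1 or 3 and with transgenic RNA in Cy3 alone. It encodes a subunit of the G protein-gated inward rectifier, known in mice from heart atria and neurons, where it slows firing on vagal input. Its ratios were -1.06, -0.91, -1.07 and -0.41 in mice 1 to 4, a mean of -0.86 ± 0.31 or 1.82-fold lower (adjusted p = 0.00336). All 8 arrays were below 0, from -1.15 to -0.11, and mouse 4 was nearest to 0. The other 4 inward rectifier genes did not pass. These were Kcnj8 (-0.32 ± 0.48), which encodes the pore of the vascular ATP-sensitive channel, Kcnj12 (-0.13), Kcnj16 (-0.13) and Kcnj15 (0.03). The ratio of Kcnj8 was 0.32 in mouse 1 and -0.25 to -0.76 in the others, and without mouse 1 it averaged -0.54 and passed (adjusted p = 0.0322).

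Heart muscle genes fell beside Kcnj3. The walls of pulmonary veins contain heart muscle in mice. All 9 measured genes of the list were lower, led by Mb (-1.81), Myh7 (-1.16) and Tnni3 (-0.95). The list medians were -0.74, -0.85, -0.83 and -0.35 in mice 1 to 4, and mouse 4 was nearest to 0 there too. Whether Kcnj3 moved with heart muscle content was not tested.

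Of the 3 tandem-pore leak channel genes, 2 were lower, with 18.4% of all genes lower. Kcnk5, which encodes an alkaline-activated leak channel of epithelia, had -0.15, -0.13, -0.35 and -0.54, a mean of -0.29 ± 0.19 (adjusted p = 0.0462). Kcnk2, which encodes the stretch-sensitive channel TREK, had -0.14, -0.22, -0.32 and -0.39, a mean of -0.27 ± 0.11 (adjusted p = 0.0335). Both ratios were below 0 in each mouse but small, and both calls depended on single mice. Without any 1 of the 4 mice neither passed (adjusted p = 0.0681 to 0.13 for Kcnk5 and 0.068 to 0.108 for Kcnk2), nor without the Cy3 array of mouse 4 (0.052 and 0.108). With transgenic RNA in Cy5 alone neither passed (0.0666 for Kcnk5 and 0.678 for Kcnk2), nor did Kcnk5 in Cy3 alone (0.091). Kcnk3, which encodes an acid-sensitive leak channel of pulmonary artery muscle, stayed at 0.02 ± 0.09 (95% interval -0.15 to 0.19, adjusted p = 0.869).

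**Figure D3:**
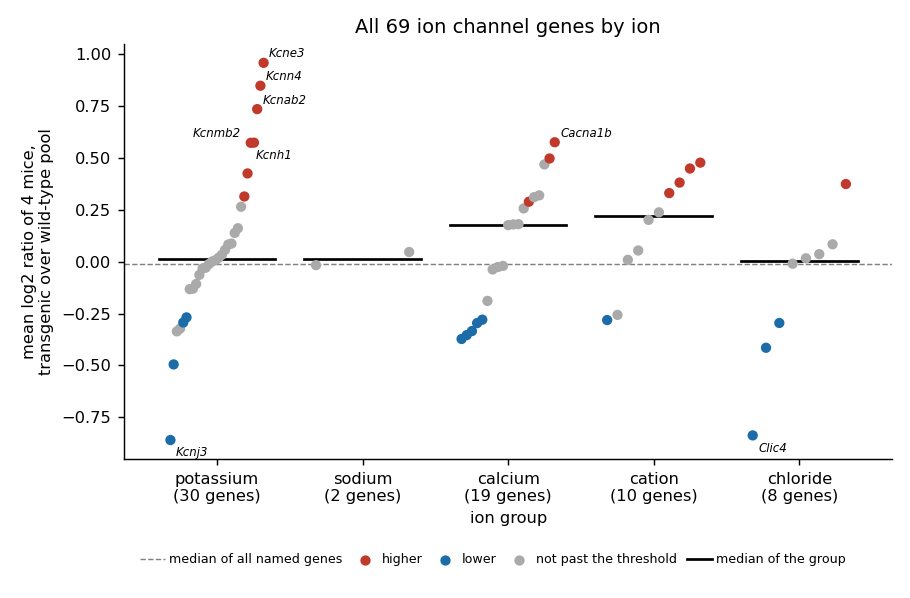
Mean log2 ratio of 4 mice, transgenic over pool (vertical axis), of all 69 ion channel genes by ion group (horizontal axis); each point is a gene, solid lines are group medians and the dashed line is the median of all named genes. The called genes lie on both sides of 0 in the potassium, calcium, cation and chloride groups, and the 2 sodium genes lie near 0.

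Among the 19 genes of the calcium group, 3 rose and 5 fell, with 13.5% of all genes higher and 18.4% lower. The group median was 0.18, but 0.04 without the Cy3 array of mouse 4, and the medians within mice 1 to 4 were 0.08, 0.03, 0 and 0.10. Among the 8 pore genes, Cacna1h had 0.36, 0.68, 0.35 and 0.60, a mean of 0.50 ± 0.17 or 1.41-fold higher (adjusted p = 0.00658), and all 8 arrays were above 0. It encodes a low-voltage-activated T-type channel. Its T-type relative Cacna1g did not pass (-0.04 ± 0.09, from probes at 0.13 and -0.20).

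The pore gene of the neuronal N-type channel, Cacna1b, had 0.27, 0.58, 0.31 and 1.15, a mean of 0.58 ± 0.40 (adjusted p = 0.0231). Mouse 4 was highest, and the gene was not called without mouse 2 (adjusted p = 0.0713). Its mean without the Cy3 array of mouse 4 was 0.48 (adjusted p = 0.0115). With transgenic RNA in Cy3 alone it did not pass (adjusted p = 0.08). Cacna1f, which encodes an L-type channel of the retina, had -0.29, -0.21, -0.21 and -0.47, a mean of -0.30 ± 0.12 (adjusted p = 0.0269). It missed the threshold without any 1 of the 4 mice (adjusted p = 0.058 to 0.0913) and with transgenic RNA in Cy3 alone (0.13). The L-type pore genes of muscle and of pacemaking cells, Cacna1c (0.18 ± 0.16) and Cacna1d (0.32 ± 0.32), did not pass (adjusted p = 0.141 and 0.0858), although Cacna1c did with transgenic RNA in Cy3 alone (0.49, adjusted p = 0.0417), nor did Cacna1a (0.18) and Cacna1e (-0.03).

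All 3 beta subunit genes were called, and not in 1 direction, with 31.9% of all genes called. Beta subunits carry the pore to the membrane and modulate its opening. Cacnb1, the form of skeletal muscle, had 0.21, 0.36, 0.29 and 0.29, a mean of 0.29 ± 0.06 (adjusted p = 0.0202). Cacnb2, the form of heart muscle, had -0.55, -0.20, -0.41 and -0.25, a mean of -0.35 ± 0.16 (adjusted p = 0.0191). Each of these kept its sign on all 8 arrays, so the 2 genes did not overlap. Cacnb4, a form of the brain, had -0.14, -0.20, -0.45 and -0.32, a mean of -0.28 ± 0.14 (adjusted p = 0.0356), which came from probes at -0.51 and -0.05. The name of the probe at -0.51 lies in the less certain number blocks, and without those names Cacnb4 did not pass (adjusted p = 0.742). Cacnb1 was not called without mouse 1, 2 or 3 (adjusted p = 0.0608 to 0.0846), Cacnb2 without mouse 1 or 3 (0.0657 to 0.0873) and Cacnb4 without any 1 mouse (0.0676 to 0.133). With transgenic RNA in Cy3 alone none of the 3 passed (adjusted p = 0.0622 to 0.203).

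The remaining accessory calcium channel genes gave 2 falls among 7, with 18.4% of all genes lower. Cacna2d1, which encodes the extracellular alpha-2/delta subunit that binds gabapentin, had -0.54, -0.34, -0.19 and -0.27, a mean of -0.33 ± 0.15 (adjusted p = 0.0215). It was below 0 on all 8 arrays, with 3 probes at -0.58, -0.28 and -0.14. It was not called without mouse 1 or 2 (adjusted p = 0.0742 to 0.0972) and without the Cy3 array of mouse 4 (adjusted p = 0.0662). Nor did it pass with transgenic RNA in Cy5 alone (adjusted p = 0.117). Cacna2d2, which encodes the relative known from lung, had 0.45, 0.03, 0.06 and 1.34, and its mean of 0.47 ± 0.61 did not pass (adjusted p = 0.122). Cacna2d3 did not pass either (-0.19). Cacng8, which encodes a gamma protein that also serves glutamate receptors, had -0.29, -0.33, -0.30 and -0.57, a mean of -0.37 ± 0.13 (adjusted p = 0.0131). With transgenic RNA in Cy5 alone Cacng8 did not pass (-0.217, adjusted p = 0.0679). Cacng1 (0.31), Cacng2 (0.26) and Cacng4 (0.18) lay on the other side of 0 and did not pass. The 1 measured store release channel gene, Ryr1, which releases calcium in skeletal muscle, was at -0.02 ± 0.14 (adjusted p = 0.873).

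In the mixed cation group 4 of 10 genes were higher and 1 was lower, with 13.5% of all genes higher and 18.4% lower. The group median of 0.22 was the highest of the 5 groups (0.14 without the Cy3 array of mouse 4). Trpc4ap, which encodes a protein first found as a partner of a TRP channel and known as an adaptor of a ubiquitin ligase, had 0.58, 0.45, 0.35 and 0.54. Its mean was 0.48 ± 0.10 or 1.39-fold higher (adjusted p = 0.00483), and all 8 arrays were above 0. Both vanilloid TRP genes measured were higher. Trpv2, which encodes a calcium-permeable channel of macrophages, had 0.69, 0.33, 0.47 and 0.32, a mean of 0.45 ± 0.17 (adjusted p = 0.00946). On the arrays with transgenic RNA in Cy3 alone its mean was 0.24 (adjusted p = 0.208).

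Trpv4, which encodes the osmosensitive channel of lung endothelium and epithelium, had 0.14, 0.54, 0.10 and 0.54, a mean of 0.33 ± 0.24 (adjusted p = 0.0449). Mice 2 and 4 were the higher pair. Trpv4 was not called without mouse 1, 2 or 4 (adjusted p = 0.0673 to 0.16) and without the Cy3 array of mouse 4 (adjusted p = 0.0849). Nor did it pass with transgenic RNA in Cy5 alone (adjusted p = 0.199). Hcn3, which encodes a pacemaker channel, had 0.21, 0.26, 0.30 and 0.75, a mean of 0.38 ± 0.25 (adjusted p = 0.0308). Its highest array was the Cy3 array of mouse 4 at 1.64, and without that array its mean was 0.16 (adjusted p = 0.214). It also was not called without mouse 1, 2 or 3 (adjusted p = 0.0551 to 0.0663) or with transgenic RNA in Cy5 or Cy3 alone (0.228 and 0.105).

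The melastatin TRP genes were the part of the cation group without a rise. Trpm6, which encodes a magnesium channel joined to a kinase, had -0.33, -0.19, -0.45 and -0.16, a mean of -0.28 ± 0.13 (adjusted p = 0.0344). It was not called without mouse 1, 2 or 3 (adjusted p = 0.0741 to 0.13) and without the Cy3 array of mouse 4 (adjusted p = 0.221). Nor did it pass with transgenic RNA in Cy5 alone (adjusted p = 0.257). Trpm2, the oxidant-gated channel gene of phagocytes, was below 0 on all 8 arrays but did not pass (-0.26 ± 0.16, adjusted p = 0.056), except with mouse as a random block over the 8 arrays (0.0482). Trpm3 (0.20), Trpm4 (0.05), Trpm5 (0.24) and Trpm8 (0.01) did not pass.

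In the chloride group the calls lay in 1 family. None of the 4 CLC genes passed, while all 4 CLIC genes did, 1 higher and 3 lower, with 31.9% of all genes called. Of the CLIC calls only that of Clic4 was kept under each alternative run. Clic4 fell most. It encodes a protein known for its part in the hollowing of endothelial tubes and in TGF-beta signalling. Its ratios were -0.67, -1.03, -0.42 and -1.23 in mice 1 to 4, a mean of -0.84 ± 0.36 or 1.79-fold lower (adjusted p = 0.0051). All 8 arrays lay between -1.49 and -0.39, and mice 2 and 4 were the lower pair, although the difference between mice did not pass (adjusted p = 0.0912).

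Clic3 had -0.38, -0.15, -0.77 and -0.36, a mean of -0.42 ± 0.26 (adjusted p = 0.0244). Clic5, which encodes a protein that links membranes to the actin cortex, had -0.14, -0.48, -0.27 and -0.30, a mean of -0.30 ± 0.14 (adjusted p = 0.0302). Clic5 was above 0 on 3 of 8 arrays, and its mean was -0.07 on the arrays with transgenic RNA in Cy3 alone (adjusted p = 0.725). Clic1, which encodes the family member abundant in macrophages, had 0.55, 0.27, 0.50 and 0.18, a mean of 0.37 ± 0.18 (adjusted p = 0.018) with all 8 arrays above 0. Its mice thus lay wholly above 0 and those of the 3 other CLIC genes wholly below it. Clic1 was not called without mouse 1 or 3 (adjusted p = 0.0668 to 0.0817), Clic3 without mouse 1, 3 or 4 (0.0642 to 0.0721) and Clic5 without any 1 mouse (0.0555 to 0.121). With transgenic RNA in Cy3 alone Clic1 and Clic3 did not pass either (adjusted p = 0.105 and 0.188).

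Markers of type 1 alveolar cells were lower in 3 of 4 measured genes, with 18.4% of all genes lower. These were Emp2 (-0.98), Ager (-0.78) and the water channel gene Aqp5. The remaining marker, Pdpn, did not pass (0.015 ± 0.137, adjusted p = 0.905). The list medians were -0.60, -0.44, -0.80 and -0.73 in mice 1 to 4. Of 3 endothelial markers 1, Ramp2, was higher. It was not called without mouse 1 or 2 (adjusted p = 0.0832 to 0.0872) or with transgenic RNA in Cy3 alone (0.49). The endothelial list medians were 0.08, -0.53, 0.17 and -0.48 in mice 1 to 4. Mice 2 and 4 were the lower pair in these medians, as for Clic4. Ramp2 itself was at 0.65, 0.52, 0.22 and 0.20, and so did not divide the mice in that way. The part of these cells in the CLIC values was not tested. The CLC genes, whose products serve endosomes and lysosomes, gave Clcn3 (-0.01), Clcn5 (0.04), Clcn7 (0.08) and Clcn4 (0.02), and for Clcn4 the mean hid probes called in opposite directions, at -0.36 and 0.30.

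**Figure D4:**
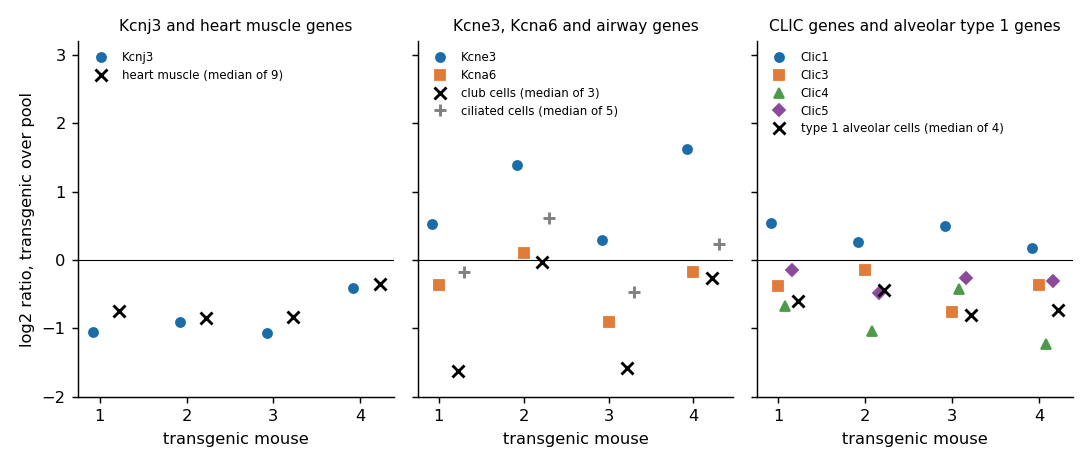
Log2 ratio of transgenic lung over the pool (vertical axis) in the 4 transgenic mice (horizontal axis) for Kcnj3, for Kcne3 and Kcna6 and for the 4 CLIC genes, with the median of cell type markers in the same mice as crosses. Kcnj3 and the heart muscle median are both nearest to 0 in mouse 4, at -0.41 and -0.35, and Kcne3 and the club cell median are both higher in mice 2 and 4.

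The sodium group held 2 genes and neither passed. Scnn1a, which encodes the alpha subunit of the epithelial sodium channel that clears fluid from alveoli, had -0.17, 0.20, -0.07 and -0.03, a mean of -0.02 ± 0.15. Its 95% interval ran from -0.21 to 0.18 (adjusted p = 0.9), and its 2 probes gave 0.06 and -0.09. Scn3b, an accessory subunit gene of voltage-gated sodium channels, had 0.13, -0.25, 0.36 and -0.05, a mean of 0.05 ± 0.26 (adjusted p = 0.768). Both genes straddled 0 among the mice.

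Across ions, accessory subunits and partners were called in 11 of 20 genes, 6 higher and 5 lower, and pore-forming or transporting subunits in 13 of 45, 8 higher and 5 lower, against 31.9% of all genes. This division into roles was made after the values were seen. Tested by probe, 16 of the 88 usable probes were higher and 11 lower, while 25.7% of all 20621 probes were called. Of 13 genes with more than 1 probe, 6 had all probe means on 1 side of 0. Kcnn4 had the widest gap, 1.16.

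**Figure D5:**
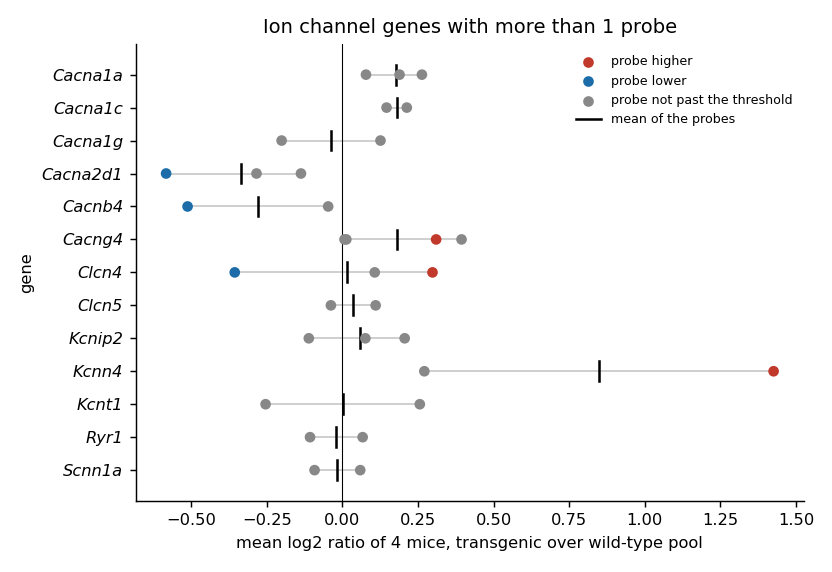
Mean log2 ratio of 4 mice, transgenic over pool (horizontal axis), of each probe of the 13 ion channel genes with more than 1 usable probe; points are probes, coloured by the test over all probes, and ticks are the means of a gene. The probes of Clcn4 were called in opposite directions, and 1 probe each of Kcnn4, Cacna2d1 and Cacnb4 carried the call of its gene.

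Related genes outside the prefixes were taken from lists of channels, pumps and regulators. Of 36 measured genes of other channel families, 8 were higher and 2 lower, or 27.8%, against 31.9% of all genes. The lysosomal cation channel gene Mcoln2 was 2.11-fold higher (1.08 ± 0.17), the nicotinic receptor genes Chrna5 (0.78 ± 0.30) and Chrna1 (0.62 ± 0.14) followed, and Ttyh3 (-0.43) and Tpcn1 (-0.39) were lower. Of 14 gap junction, pannexin and aquaporin genes, 4 were higher and 2 lower (42.9%), with Aqp11 at 0.84 ± 0.13, Gja4 at 0.79 ± 0.68, Panx1 at 0.55 ± 0.10, the alveolar water channel gene Aqp5 at -0.55 ± 0.24 and Gjb1 at -0.26. Gja4 was not called without mouse 1, 3 or 4 (adjusted p = 0.0789 to 0.114), Gjb1 without any 1 mouse (0.0614 to 0.121), Ttyh3 without mouse 2 or 4 (0.0633 to 0.0932) and Tpcn1 without mouse 1 (0.0545). With transgenic RNA in Cy5 alone Gjb1 did not pass (adjusted p = 0.159).

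Among 23 pumps and transporters that set ion gradients, 5 were higher and 5 lower, or 43.5%, against 31.9% of all genes. The anion exchanger gene Slc26a4 had the highest ratio (2.86 ± 0.94), followed by Slc4a2 (0.71 ± 0.06) and the potassium and chloride cotransporter gene Slc12a7 (0.66 ± 0.03). Slc12a5 (-0.77 ± 0.10), the pump regulator gene Fxyd1 (-0.54 ± 0.29) and the sodium pump beta subunit gene Atp1b1 (-0.46 ± 0.26) were lower. Atp1b1 was not called without mouse 1 or 3 (adjusted p = 0.0603 to 0.0716) and without the Cy3 array of mouse 4 (adjusted p = 0.214). Nor did it pass with transgenic RNA in Cy5 alone (adjusted p = 0.26).

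Of 21 genes for partners of calcium stores, 9 were lower and 0 higher (42.9%, with 18.4% of all genes lower), and the list median was -0.21, with mouse medians from -0.31 to -0.19. Pln, which encodes the brake of the calcium store pump, was 0.437 of the pool level (-1.20 ± 0.10). The junction gene Jph4 (-0.74 ± 0.49) and the calmodulin gene Calm2 (-0.71 ± 0.15) followed. The name of Pln lies in the less certain number blocks, and Jph4 did not pass without mouse 1 or 4 (adjusted p = 0.055 to 0.0591). The heart muscle genes fell beside it, 9 of 9 with a median of -0.67. Of 5 smooth muscle markers, 3 were lower and 1, Myocd, was higher (0.72 ± 0.09), and Des was not lower without mouse 1 or 3 (adjusted p = 0.0502 to 0.055). The part of muscle content in the list was not tested.

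Of 20 genes that regulate channel activity or traffic, 5 were higher and 3 lower, or 40%, against 31.9% of all genes. The calcium sensor gene Ncs1 (0.70 ± 0.31), the kinase gene Sgk2 (0.47 ± 0.17) and the scaffold gene Dlg2 (0.36 ± 0.21) were the highest. The glucocorticoid receptor gene Nr3c1, whose product induces sodium channel subunits in lung, was the lowest (-0.80 ± 0.07, adjusted p = 0.000922), followed by Dlg1 (-0.40 ± 0.15) and Wnk1 (-0.26 ± 0.15). Dlg2 was not called without mouse 1, 2 or 4 (adjusted p = 0.0546 to 0.0855) and without the Cy3 array of mouse 4 (adjusted p = 0.129). Its mean was 0.143 without names in the less certain number blocks (adjusted p = 0.177) and 0.048 with transgenic RNA in Cy5 alone (adjusted p = 0.659). Dlg1 was not called without mouse 1 (0.0553) and Wnk1 without any 1 mouse (0.0501 to 0.139) or without the Cy3 array of mouse 4 (0.0547). With transgenic RNA in Cy5 alone Wnk1 did not pass either (adjusted p = 0.241). Neuronal and neuroendocrine markers, checked because many channel genes are neuronal, were higher in 2 of 5 genes, Tubb3 (0.73 ± 0.32) and Uchl1 (0.48 ± 0.14), with mouse medians from 0.10 to 0.20. The part of nerve tissue in the channel values was not tested.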

How the data were processed

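Lung RNA from 4 Fra-2 transgenic mice was compared with 1 pool of wild-type RNA on 8 arrays of 2 colours, with RNA isolation and indirect Cy3 or Cy5 labelling per the labels' protocols. The authors deposited a log2 ratio for each probe on each array. The sources used here do not give the background correction, normalization or software, and spot signals and depth are unknown. The number of mice limits the precision. Each of the 498 values beyond 10 in size was treated as a placeholder and set to missing, beside 706 missing as deposited.

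Gene names pair annotation number with value row at an offset of 11. Probes of the same gene correlated at 0.228 (Spearman, 4714 pairs) at that offset and between -0.03 and 0.035 at the other offsets from 0 to 21. In earlier work on these data the offset was least certain for numbers in the blocks from 8000 and 13000, which hold 7 of the 69 genes, among them Kcne3, Kcnj3 and 1 probe of Cacnb4, and also Pln and a probe of Dlg2. In all 12296 probes and 8741 genes were named; 475 annotated probes above number 20237 were not. Probes needed a value in each mouse.

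The 2 arrays of a mouse and then the probes of a gene were averaged, and the moderated test of limma 3.58.1 (R 4.3.3) was run two-sided against 0 on 8692 genes; lmFit left 3 residual degrees of freedom and eBayes added a prior of 4.27. A dye effect, tested on differences within mice, passed for no ion channel gene (smallest adjusted p = 0.133) and for 0 of 8645 genes. The tests were tested on simulated data. Symbols and promoters came from RefSeq tables (GRCm38.p6), with windows for 53 of the 69 genes. Python 3.11.15, numpy 2.4.6, pandas 2.3.3 and matplotlib 3.10.9 drew the plots.

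The members, lists and tests were chosen with earlier results of these data known. Genes named with values were the 12 highest and 12 lowest called, the 2 largest of each ion group, genes that differed between mice, genes with probes over 1 apart, relatives of these, and up to 3 called genes a list and direction. Other members were named after their values were seen, so that each is accounted for, including the called genes Trpv4, Kcnh2, Cacnb1 and Kcnk2. Alternatives covered mice, dye orientation, technical replicates, centring, scaling, probes, names and the variance prior.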

Additional observations from a re-analysis of the deposited data

Results flagged for a closer look

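In 3 of the 69 ion channel genes 1 mouse lay far from the other 3, by Dixon's criterion at the 95% level; chance alone gives about 1 in 20 such genes. All 3 were mouse 4, whose Cy3 array had the widest spread. Cacng8 was -0.572 in mouse 4, against -0.29, -0.33 and -0.30 in mice 1 to 3. Kcna1 was 0.601 in mouse 4, against -0.26, -0.23 and -0.16. Kcnt1 was 0.242 in mouse 4, against -0.06, -0.11 and -0.08. Without that array the means were -0.31 for Cacng8, -0.04 for Kcna1 and -0.12 for Kcnt1, and only Cacng8 passed (adjusted p = 0.01).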

How the results depend on the processing

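No paired analysis was possible because 1 group was measured and its ratios run against 1 pool. With 1 mouse left out, 9 to 13 ion channel genes were higher and 4 to 6 lower, 1555 to 2107 of all genes were called, and 0 to 1 ion channel genes differed between mice; fewer mice alone lower the power. Arrays with transgenic RNA in Cy3 alone gave 7 higher and 7 lower, and mouse 4 from its Cy5 array alone, an alternative chosen after seeing the data, gave 8 lower. The count that differed between mice was 0 without the dye covariate, 0 with values beyond 10 in size kept and 1 with array medians subtracted. On the Cy5 arrays alone Kcnd3 (-0.258), Kcnip2 (-0.261) and Trpm4 (-0.32) passed as lower, against means just above 0. Not called otherwise, Cacna1c passed as higher on the Cy3 arrays, Trpm2 as lower with mouse as a random block and Kcnj8 as lower without mouse 1. No called gene reversed under the alternatives run. The cause of these changes was not tested. Of the 28 called genes, 7 kept their call under each alternative run: Cacna1h, Clic4, Kcnab2, Kcnh1, Kcnj3, Kcnn4 and Trpc4ap, although Kcnj3 and Kcne3 have no value without the least certain names. Cacnb4 was -0.05 without the least certain names (adjusted p = 0.742), and Kcnk2 was -0.04 on the Cy5 arrays alone (adjusted p = 0.678). Of 50 named genes of the other lists, 15 lost their call under at least 1 alternative and 0 reversed. Depth and signal over background are unknown.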

Other observations

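The remaining marker lists were those of type 2 alveolar cells, red blood cells and fat. Of 3 type 2 genes 1 was higher, Sftpb (0.37 ± 0.19). Sftpb did not pass without mouse 1 or 2 (adjusted p = 0.0873 to 0.0917) or with transgenic RNA in Cy3 alone (0.152). Of 2 red blood cell genes 1 was lower, Hba-a1 (-0.61 ± 0.16). Of 4 fat genes 3 were lower, Adipoq (-2.03 ± 0.40), Cidec (-1.55 ± 0.57) and Fabp4 (-1.16 ± 0.58), and the name of Cidec lies in the less certain number blocks.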
